A study of Mus musculus with 16 samples.

Results

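The 32 genes described here encode the enzymes of glycolysis, the regulators and transporters that set its flux, and the oxygen sensing pathway of hypoxia inducible factor (HIF) with some of its usual targets. They were taken by symbol from a list of pathway genes, and all 32 were found among the 24421 genes of the count table. The list holds 14 glycolytic enzyme genes, 3 regulators of glycolytic flux, 4 glucose and lactate transporter genes, 3 HIF pathway regulators and 8 hypoxia target genes. Together they held 0.327% to 0.563% of the counts of a library.

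Glycolysis splits glucose into pyruvate in the cytoplasm and yields ATP without oxygen, and lactate dehydrogenase turns pyruvate into lactate when the pathway runs faster than the mitochondria use its product. HIF-1 is a transcription factor made of an oxygen-regulated alpha subunit and a constant beta subunit. In the presence of oxygen, prolyl hydroxylases mark the alpha subunit for degradation by the VHL ubiquitin ligase, and in low oxygen it accumulates and switches on glycolytic, angiogenic and pH-regulating genes. The epidermis has no vessels of its own and is fed by diffusion from the dermis, and dividing keratinocytes are known to use glycolysis heavily.

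RNA was sequenced from skin of female SKH-1 mice, a hairless strain with an intact immune system that develops skin tumors under chronic ultraviolet B (UVB). The exposed arm received UVB at 60 mJ/cm2 in 2 sessions per week, and the control arm received no agent. Epidermis of both arms was sampled after 2, 15 and 25 weeks. At 25 weeks, tumors of the exposed arm and whole skin of the control arm were also taken, which gave 8 groups of 2 libraries, numbered 0 and 1 in the titles. The labels give neither the age of the mice nor the type of tumor, nor do they state whether paired libraries represent different animals or whether tissue was pooled. The p-values therefore rest on the spread among these libraries, which may be technical.

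Library totals ran from 2905165 counts (week 2 control 1, the shallowest by far) to 7959503 (whole skin 0), and replicates of all 8 groups differed by more than sampling noise. Levels below are CPM, counts relative to the library total after scaling by the trimmed mean of M values (TMM), and CPM per kilobase of exon where genes are compared with each other. Epidermis libraries matched their label, with 8 keratinocyte marker genes at 5091 to 6213 summed CPM and 18 skeletal muscle marker genes at 35.8 to 160. In whole skin and tumor the keratinocyte sum was 3273 to 3787 and the muscle sum was 4554 to 9443, with no muscle marker at 0, so these tissues also held RNA of muscle. In bulk tissue, fewer cells of a type and less RNA per cell cannot be told apart.

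**Figure D1:**
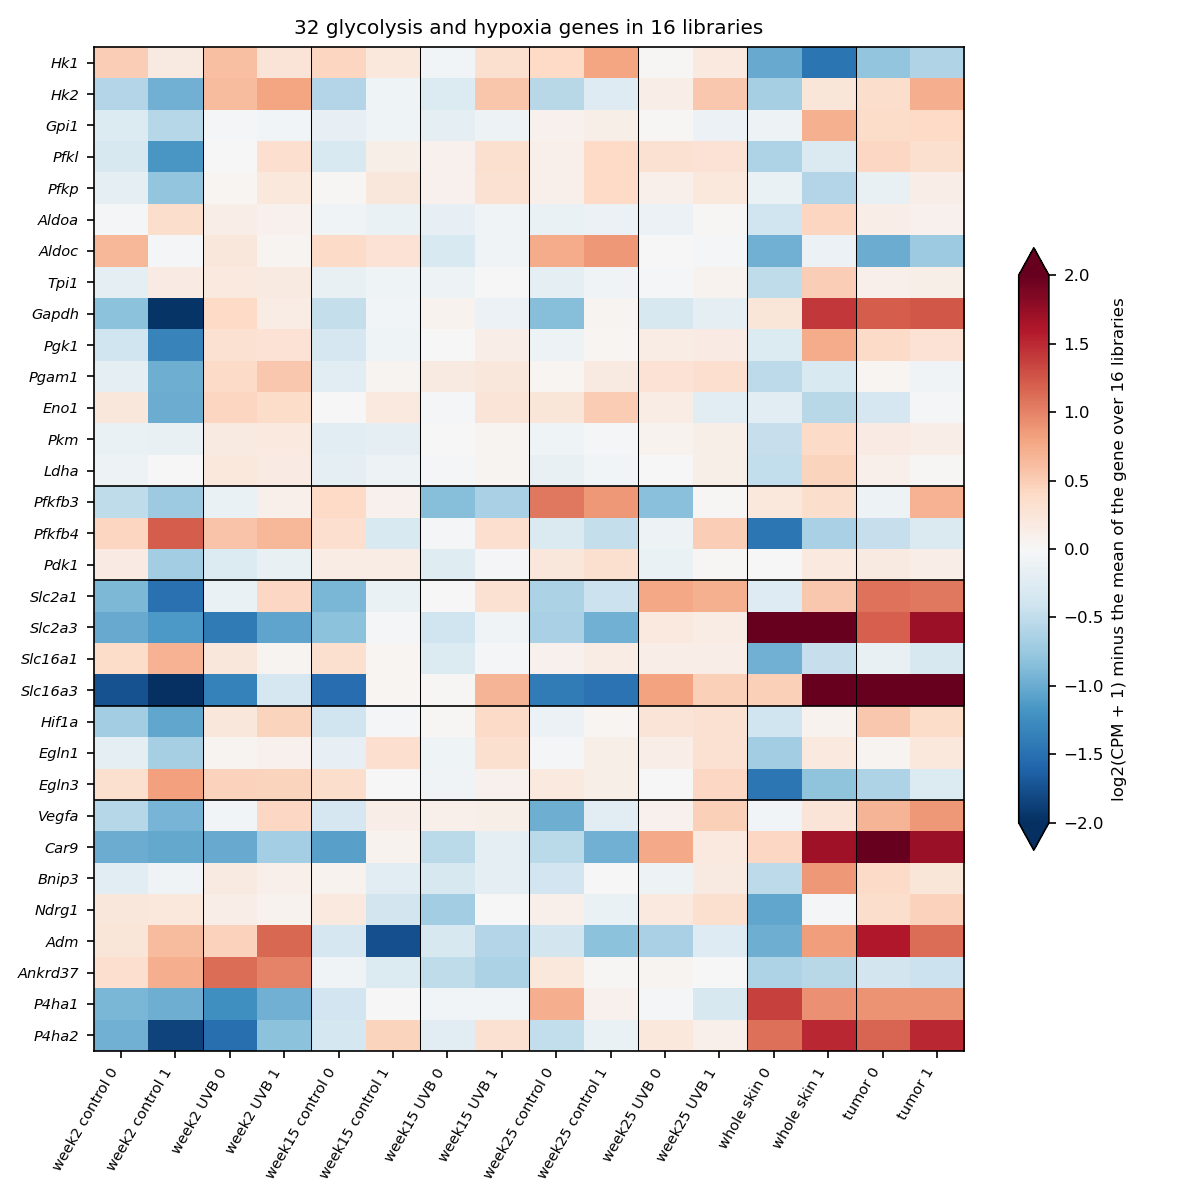
Level of the 32 genes (rows, in order of role, black lines between roles) in the 16 libraries (columns), as log2(CPM + 1) minus the mean of that gene over the 16 libraries. Colour runs from blue (lower) to red (higher), and values past 2 on either side take the end colour. Hk2, Slc2a1 and Hif1a are blue in the week 2 controls, Slc16a3 takes the red end colour in both tumor libraries and in whole skin 1, and whole skin 0 and whole skin 1 differ in most rows.

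Over the 3 time points, UVB-exposed epidermis held more RNA of a small set of these genes, led by the glucose transporter Slc2a1, the lactate exporter Slc16a3 and the first enzyme of glycolysis, Hk2, while most members were not called. In the fit that averages the effect over weeks, 8 of the 31 members tested rose and 1 fell. Across all 13478 genes tested in that fit, 14.4% were called higher and 15.1% lower, so the count of rises was above the background share and the count of falls below it. The median log2 fold was 0.16 over the members and -0.02 over all genes tested. Called here means an adjusted p under 0.05 in the quasi-likelihood test of edgeR, adjusted by the Benjamini-Hochberg method across every gene in the fit. The rises were Slc16a3, Slc2a1, Hk2, Vegfa, Hif1a, Pgk1, Pgam1 and Pkm, and the fall was Aldoc. Of these, Slc16a3, Slc2a1, Hk2, Vegfa, Hif1a and Aldoc kept their call under all 17 alternatives, whereas Pgk1 lost it under 10, Pgam1 under 11 and Pkm under 12. With the replicate number as a block, 5 rises and the fall were called, beside 1828 genes higher and 1859 lower of 13478. The share of members that rose was then closer to that of all genes.

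Proliferation genes moved in the same direction as this set. In a list of 12, all 12 were called higher in the mean over weeks, and their summed level was 123 to 531 CPM in control epidermis and 488 to 939 in UVB epidermis. The 10 macrophage markers summed to 34.2 to 59.1 CPM in control and 68.7 to 161 in UVB epidermis, and 7 were called higher in the mean over weeks. At week 2 only 1 of the 10 was called higher, and their median log2 fold was -0.50. The part of these cells and of proliferation in the member values was not tested.

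Promoters of the 4 genes that the naming rule singled out are shown because these genes carried the UVB result and because HIF is known to bind a short core, ACGTG or GCGTG. Sequences are RefSeq promoters of build GRCm38.p6 (250 bases before to 50 after the annotated start), written 5′ to 3′ on the strand of the gene, with each core in capitals (on the opposite strand the core reads CACGT or CACGC, and overlapping cores share 1 run of capitals).
Slc2a1, chr4:119108495-119108794, plus strand: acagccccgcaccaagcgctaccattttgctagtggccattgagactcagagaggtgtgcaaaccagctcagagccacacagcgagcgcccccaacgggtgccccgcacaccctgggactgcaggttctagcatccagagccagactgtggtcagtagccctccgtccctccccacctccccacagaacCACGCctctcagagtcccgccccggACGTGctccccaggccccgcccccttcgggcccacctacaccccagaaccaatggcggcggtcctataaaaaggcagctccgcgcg
Hk2, chr6:82774405-82774704, minus strand: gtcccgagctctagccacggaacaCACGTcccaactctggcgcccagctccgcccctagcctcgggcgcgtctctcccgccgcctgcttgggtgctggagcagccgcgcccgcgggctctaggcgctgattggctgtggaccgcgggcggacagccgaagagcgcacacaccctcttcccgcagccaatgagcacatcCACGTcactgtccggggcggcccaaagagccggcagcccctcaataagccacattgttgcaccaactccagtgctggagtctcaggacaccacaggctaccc
Slc16a3, chr11:120948817-120949116, plus strand: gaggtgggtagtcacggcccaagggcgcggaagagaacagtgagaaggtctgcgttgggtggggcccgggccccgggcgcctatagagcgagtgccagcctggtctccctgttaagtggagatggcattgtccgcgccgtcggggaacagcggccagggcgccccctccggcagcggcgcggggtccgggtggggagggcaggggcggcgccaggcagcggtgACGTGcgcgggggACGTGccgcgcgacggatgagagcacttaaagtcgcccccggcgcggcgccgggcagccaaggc
Vegfa, chr17:46032328-46032627, minus strand: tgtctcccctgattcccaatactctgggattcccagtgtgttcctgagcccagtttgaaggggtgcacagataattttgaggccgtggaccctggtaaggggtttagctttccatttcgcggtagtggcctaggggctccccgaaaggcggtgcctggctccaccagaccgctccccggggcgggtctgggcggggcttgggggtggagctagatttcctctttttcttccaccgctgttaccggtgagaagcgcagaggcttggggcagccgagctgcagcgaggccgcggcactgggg
The promoters of Slc2a1, Hk2 and Slc16a3 each hold a core at 2 places, and this promoter of Vegfa holds 0. A second Vegfa entry, at chr17:46025114-46025413 and not shown, holds a core at 2 places. Its start lies 7214 bases inside the gene as the count table draws it, and Vegfa counts below as a member with a core through this entry only. The Slc16a3 start lies 583 bases inside the gene as the count table draws it. Promoter entries matched 30 of the 32 members, and a core was found in at least 1 promoter of 28 of them. By promoter, 34 of the 41 (82.9%) member entries held a core, beside 43.8% of all 32851 promoters of that length, and 63.4% against 17.3% held it at 2 or more places. Some entries of Aldoa and of Eno1 overlap, so the same core is counted more than 1 time. The list was chosen to hold usual HIF targets, so the difference in share is not separate evidence about the members. Member promoters also had a median GC content of 64.7% and 21 CpG, beside 52.7% and 7 over all promoters, and the core itself contains a CpG. Genes other than these 4 whose values are given by library below were chosen after their values were seen. A match describes the letters in this window and is not evidence of binding.

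Slc2a1 encodes GLUT1, the main glucose transporter of keratinocytes. Its level was 75.9 and 49.96 CPM in the week 2 controls (libraries 0 and 1) and 130 and 190 CPM after 2 weeks of UVB. At week 15 it was 75.2 and 130 in control and 143 and 175 in UVB, and at week 25 it was 90.9 and 105 in control and 244 and 232 in UVB. Both UVB libraries stood above both controls at each of the 3 weeks, and the UVB libraries of week 25 were the highest in epidermis. The log2 fold was 1.30 ± 0.28 (SE) at week 2 (adjusted p = 0.0122), 0.62 ± 0.27 at week 15 (adjusted p = 0.221) and 1.25 ± 0.27 at week 25 (adjusted p = 0.0109). Averaged over weeks it was 1.05 ± 0.17 (adjusted p = 0.00117), the smallest p among the members.

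Slc16a3 encodes MCT4, which carries lactate and protons out of glycolytic cells. It was a low gene in control epidermis, at 4.95 and 3.81 CPM at week 2, 5.92 and 19.5 at week 15 and 6.58 and 6.16 at week 25. In UVB epidermis it stood at 6.77 and 14.8 CPM at week 2, 19.2 and 30.7 at week 15 and 33.6 and 26.6 at week 25. The groups did not overlap at weeks 2 and 25, and at week 15 they did, because control 1 was above UVB 0. The log2 fold was 1.24 ± 0.58 at week 2 (adjusted p = 0.151), 0.95 ± 0.49 at week 15 (adjusted p = 0.308) and 2.21 ± 0.52 at week 25 (adjusted p = 0.0155), a 4.63-fold difference at week 25. Without week 15 control 1, the week 15 log2 fold was 2.05 and was called, as was that of Slc2a1 at 1.06. That control library also had a proliferation sum of 531 CPM, against 257 in its partner, and its part in the week 15 values was otherwise not tested.

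The other 2 transporter genes were not called. Slc16a1 encodes MCT1, a transporter that moves lactate in both directions, and per kilobase it was the highest of the 4 in control epidermis at week 2 (65.6 and 82.5 CPM per kilobase, against 29.5 and 19.4 for Slc2a1). It was not called at any week, with log2 folds of -0.43 ± 0.17, -0.35 ± 0.17 and -0.01 ± 0.17. Slc2a3 encodes GLUT3, a high-affinity glucose transporter typical of neurons and of blood and immune cells. It was low in epidermis (0.188 to 2.60 CPM). At week 25 it stood at 1.01 and 0.616 CPM in control and at 2.60 and 2.50 in UVB, groups that did not overlap, with a log2 fold of 1.60 ± 0.60 (adjusted p = 0.0781). The log2 folds at weeks 2 and 15 were -0.53 ± 0.94 and 0.20 ± 0.58.

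**Figure D2:**
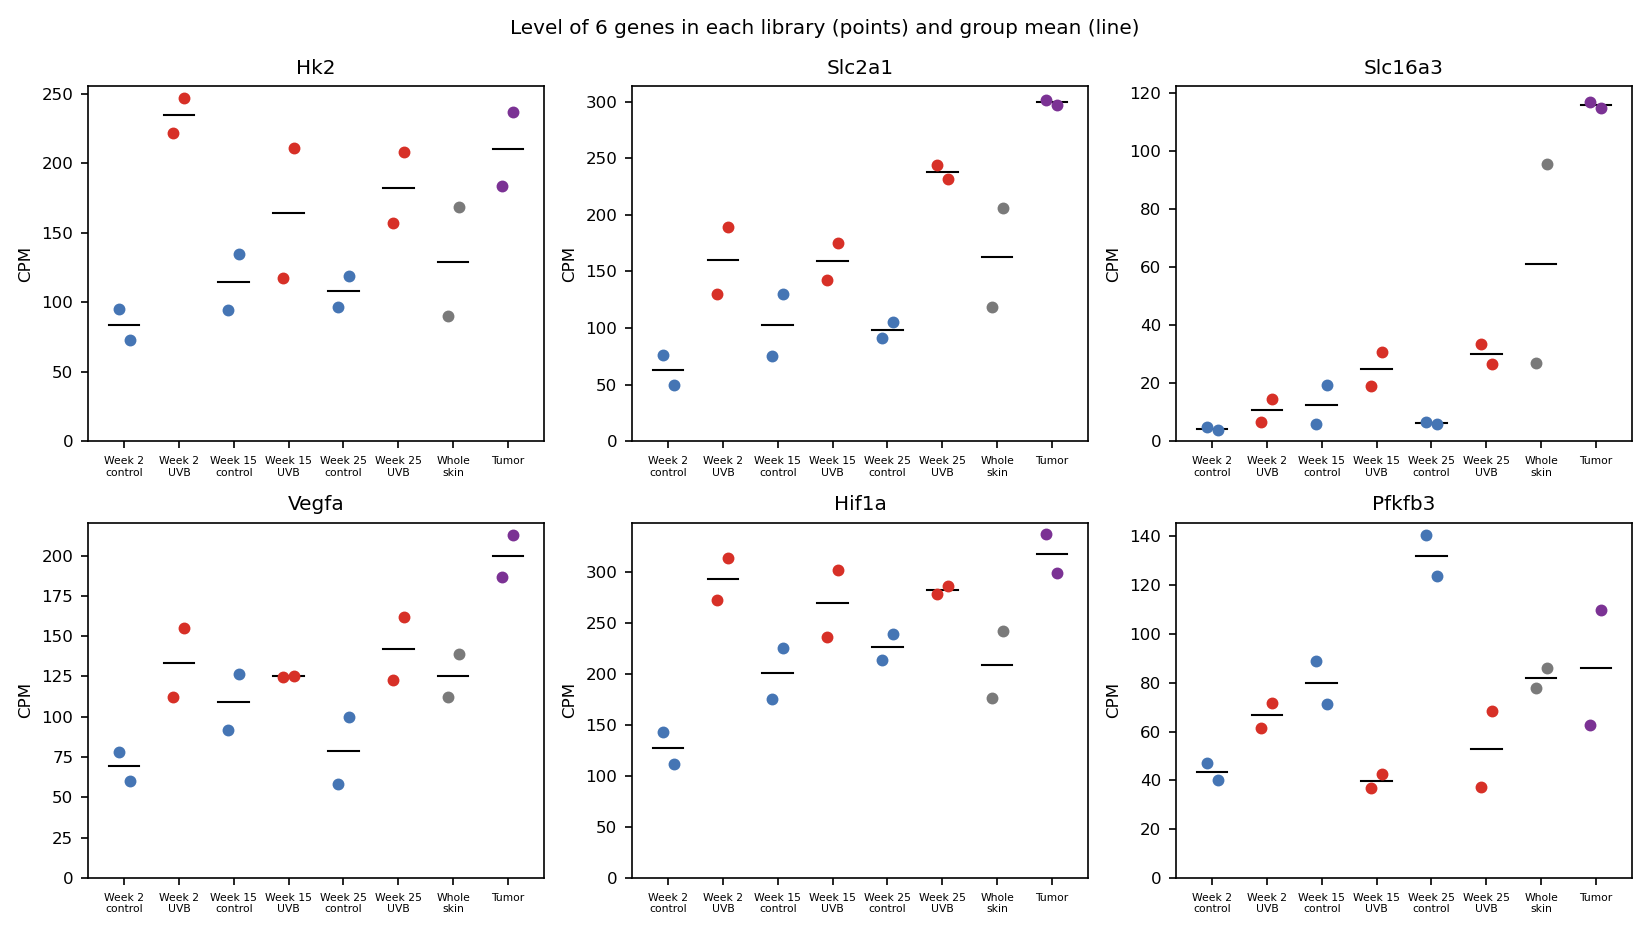
CPM of 6 genes in each library (points) with the mean of each group (line), on linear axes from 0. Blue is control epidermis, red is UVB epidermis, grey is whole skin of control mice and purple is tumor. For Slc2a1, Hk2 and Hif1a the UVB points of week 2 (130 to 190, 222 to 247 and 273 to 314 CPM) lie above every control point of that week, and for Pfkfb3 they reverse order between week 2 and weeks 15 and 25.

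Hk2 encodes hexokinase 2, the inducible hexokinase that commits glucose to the pathway. Its level was 95.3 and 72.8 CPM in the week 2 controls and 222 and 247 CPM in the UVB libraries. The week 15 values were 94.5 and 135 in control and 118 and 211 in UVB, and the week 25 values were 96.7 and 119 against 157 and 208. The groups overlapped at week 15 only. The log2 fold was 1.44 ± 0.28 at week 2 (adjusted p = 0.00899), a 2.72-fold difference, 0.51 ± 0.27 at week 15 and 0.73 ± 0.27 at week 25 (adjusted p = 0.0773). Hk1, the constitutive hexokinase, was not called at any week, and its log2 fold was 0.05 ± 0.20, -0.20 ± 0.20 and -0.52 ± 0.20 in order of week. Per kilobase, Hk2 stood below Hk1 in the week 2 controls, and the pair overlapped in week 2 UVB epidermis (17.3 and 13.2 against 47.3 and 38.0 CPM per kilobase in control, and 40.3 and 44.8 against 50.8 and 39.8 in UVB).

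At week 2, enzyme genes further along the pathway were called as well. Of the 13 glycolytic enzyme genes tested, 5 were called higher and 0 lower, and 8 of all 31 members tested were called higher and 0 lower. Over all genes tested at that week 8.09% were called higher and 9.74% lower, and the median log2 fold was 0.29 over the members and -0.03 over all genes. Besides Hk2, the enzyme genes were Pfkl (liver-type phosphofructokinase, the main control point of the pathway), Gapdh, Pgk1 (phosphoglycerate kinase, the first ATP-yielding step) and Pgam1 (phosphoglycerate mutase). Pgk1 stood at 86.2 and 44.5 CPM in control and 141 and 139 in UVB, with a log2 fold of 1.04 ± 0.22 (adjusted p = 0.0127). Pgam1 rose by 0.95 ± 0.23 on the log2 scale, from 29.9 and 16.9 CPM to 44.6 and 49.99 (adjusted p = 0.0203). Pfkl rose by 0.81 ± 0.24, from 99.9 and 55.0 CPM to 125 and 157 (adjusted p = 0.0431).

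In each of these 3 enzyme genes week 2 control 1 was the lowest epidermis library, and the week 2 count depended on which library was in the fit. Without control 1, Hk2 (log2 fold 1.29), Hif1a (1.02) and Pgk1 (0.69) were the 3 members called higher, beside 2.82% of all genes. Without control 0 the count was 13 (all genes 16.5%), without UVB 0 it was 3, Hk2, Slc2a1 and Hif1a (all genes 3.49%), and without UVB 1 it was 0 (all genes 0.508%). With only the 4 libraries of that week in the fit, Hk2 and Hif1a were called. The 12 proliferation genes were all called higher at week 2, with summed levels of 145 and 123 CPM in control and 488 and 681 in UVB, and their part in the result was not tested.

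The 4 enzyme genes with the highest level per kilobase did not pass the test at week 2. Aldoa (aldolase A) had a log2 fold of -0.10 ± 0.16, Tpi1 (triosephosphate isomerase) 0.16 ± 0.15, Ldha (lactate dehydrogenase A) 0.20 ± 0.14 and Pkm (pyruvate kinase M) 0.29 ± 0.13. Their counts reached 1.51 (Aldoa), 1.07 (Tpi1), 1.30 (Ldha) and 1.11 (Pkm) per base of exon in the highest library. Duplicate reads had been removed before counting, and in each of the 16 libraries no gene of at least 500 bases passed 1.83 to 2.11 counts per base, so folds of these 4 genes can be understated. With counts corrected for a ceiling of 2 per base, the median log2 fold of the members at week 2 was 0.43, and 9 members were called higher.

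Gapdh (glyceraldehyde-3-phosphate dehydrogenase) and Eno1 (enolase 1), usually among the most abundant transcripts of a cell, were close to absent from the table. Gapdh had 3 to 145 counts in a library and a mean of 6.25 CPM per kilobase over the 16 libraries, and Eno1 had 0 to 12 counts and 0.597 CPM per kilobase, against 197 for Aldoa. Eno1 had 0 counts in week 2 control 1, which allows up to 1.27 CPM at 3 counts and covers counting error only, and it was the single member that did not pass the filter on low counts. In the GENCODE vM21 transcripts, 88.0% of Gapdh and 85.6% of Eno1 had a near-identical match (at least 95% identity over 100 bases or more) in another gene, and for Gapdh these were 81 other genes, 77 of them pseudogenes. How reads that map to several places were counted is not given in the sources used here. The level of either gene cannot be read from these counts, and the week 2 rise of Gapdh (log2 fold 1.72 ± 0.50, adjusted p = 0.0371, from 3.99 and 1.27 CPM to 10.7 and 8.85) is uncertain for that reason and was lost under 6 of 11 alternatives.

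**Figure D3:**
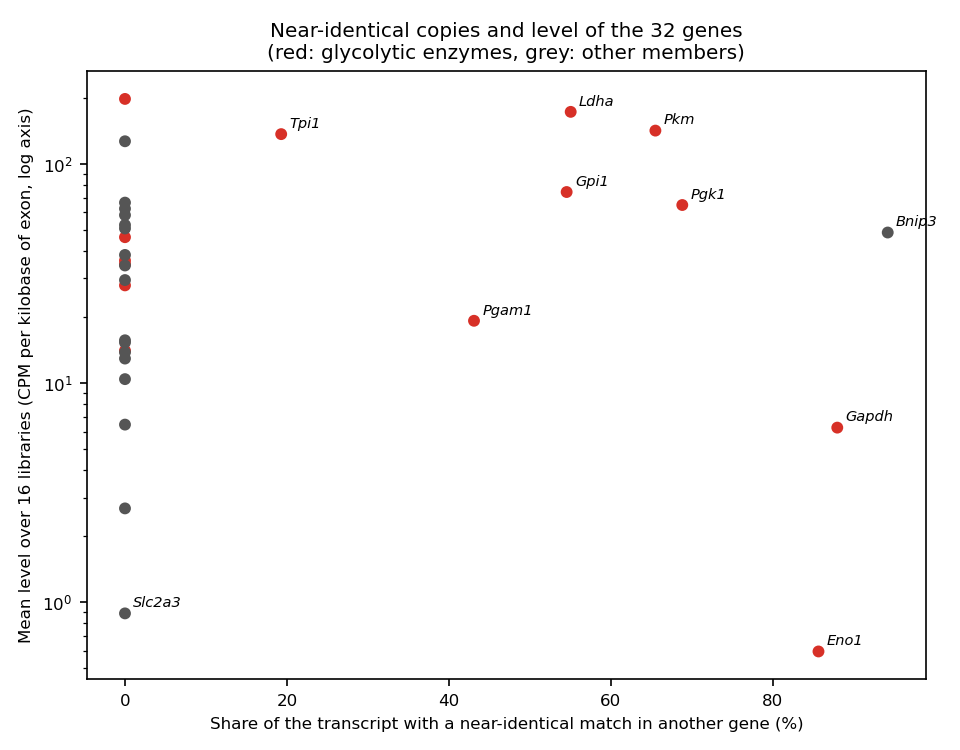
Each point is 1 of the 32 genes, with the share of its transcript that has a near-identical match in another gene (horizontal axis, percent) and its mean level over 16 libraries (vertical axis, CPM per kilobase of exon, log scale). Red points are glycolytic enzymes and grey points are the other members. Gapdh (88.0%, 6.25) and Eno1 (85.6%, 0.597) stand far below the other enzymes with matches, while Bnip3 (94.2%) stands at 48.5.

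Matches were also found for Bnip3 (94.2% of the transcript), Pgk1 (68.8%), Pkm (65.5%), Ldha (55.0%), Gpi1 (54.5%), Pgam1 (43.1%) and Tpi1 (19.3%), so the values of these 7 genes are uncertain to the extent that reads were shared. The remaining 23 members, Hk2, Slc2a1, Slc16a3, Vegfa and Hif1a among them, had 0 matches.

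At week 15 no member was called, beside 1.85% of all genes higher and 1.64% lower. At an unadjusted p under 0.05 there were 4 members (Slc2a1 and Hif1a higher in UVB, Pfkfb3 and Aldoc lower), beside 20.4% of all genes, so the share of members was below the background. DESeq2 called 1 member, Pfkfb3, lower, and 3.77% of all genes lower. At week 25, 3 members rose (Slc2a1, Slc16a3 and Vegfa) and 2 fell (Pfkfb3 and Aldoc), beside 10.6% of all genes higher and 10.9% lower, so the share of members that rose was near the background and the share that fell below it. The count of rises at week 25 was 0 without control 0, 0 without UVB 0, 1 without control 1 (Vegfa) and 2 without UVB 1, and over all genes the share called higher was then 2.38% to 4.47%. Proliferation genes were called higher in 2 of 12 cases at week 15 and in 7 of 12 at week 25. Markers of other cells were also higher at week 25. Of the markers tested, 6 of 7 fibroblast genes (summed level of the list 17.9 and 18.02 CPM in control, 189 and 69.7 in UVB), 8 of 10 macrophage genes (36.8 and 34.2 against 161 and 123) and 3 of 4 neutrophil genes (120 and 180 against 225 and 238) were called higher. Most of the neutrophil sum came from S100a8, S100a9 and Cxcr2, at 32.7 to 75.3 CPM in control and 54.8 to 104 in UVB. Csf3r was at 0 and 0 CPM in control and 0.305 and 0.536 in UVB, and Trem1 at 0 and 0 against 0.916 and 0.714. Mmp8 was at 0.337 and 0.154 against 0.305 and 0. These 3 genes had very few counts, and whether the number of neutrophils differed was not tested. The part of these cells in the week 25 values of the members was not tested.

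**Figure D4:**
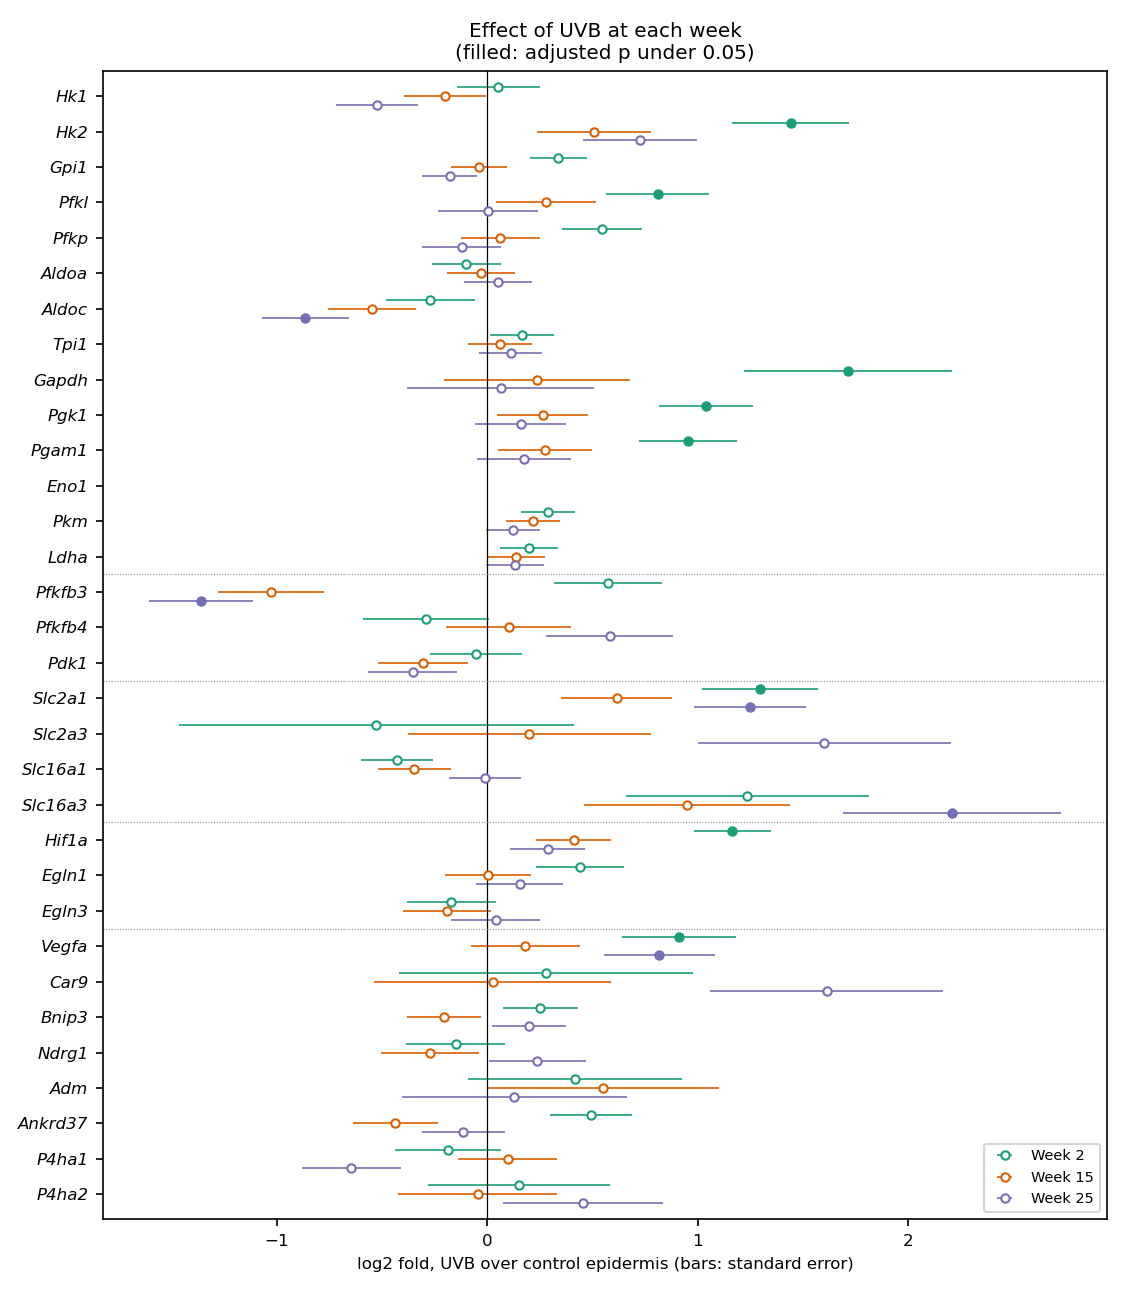
Log2 fold of UVB over control epidermis (horizontal axis) for each member (rows, in order of role) at weeks 2 (green), 15 (orange) and 25 (violet), with bars of 1 standard error and filled points where the adjusted p was under 0.05. Eno1 has no point because it did not pass the filter. Filled green points lie to the right only (8 members), the orange points are all open, and Pfkfb3 runs from 0.57 at week 2 to -1.36 at week 25.

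Among the HIF pathway regulators, Hif1a, the oxygen-regulated alpha subunit itself, had the smallest p of all members at week 2. It stood at 143 and 112 CPM in the week 2 controls and at 273 and 314 in UVB epidermis, with a log2 fold of 1.16 ± 0.18 (adjusted p = 0.00478). The values were 176 and 225 against 237 and 302 at week 15, and 214 and 239 against 278 and 287 at week 25. UVB libraries were above both controls at each week, but the log2 fold was 0.41 ± 0.18 at week 15 and 0.29 ± 0.18 at week 25, and neither was called. The difference between weeks was not called (adjusted p = 0.134; DESeq2 called it). These are RNA levels, and the HIF-1 alpha protein is known to be set mainly by its breakdown. Egln1 and Egln3, which encode prolyl hydroxylases that mark HIF alpha subunits, were not called at any week, with log2 folds from 0.00 to 0.44 and from -0.19 to 0.04.

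Vegfa, which encodes the main growth factor for vessels and is made by keratinocytes, was the single hypoxia target among the 8 that was called in epidermis. Its level was 78.2 and 60.1 CPM in control and 112 and 155 in UVB at week 2, 91.6 and 127 against 125 and 125 at week 15, and 58.2 and 99.8 against 123 and 162 at week 25. The groups did not overlap at weeks 2 and 25. The log2 fold was 0.91 ± 0.27 at week 2 (adjusted p = 0.0409), 0.18 ± 0.26 at week 15 and 0.82 ± 0.26 at week 25 (adjusted p = 0.0478). Both weekly calls were lost under 4 of 11 alternatives.

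The other 7 hypoxia targets did not pass the test at any week. Their log2 folds at week 2 ran from -0.18 (P4ha1, a collagen prolyl hydroxylase subunit) to 0.49 (Ankrd37), and at week 25 from -0.64 (P4ha1) to 1.61 (Car9). Car9, which encodes the carbonic anhydrase IX used as a tissue marker of hypoxia, stood at 2.19 and 1.39 CPM in the week 25 controls and at 6.87 and 4.29 in UVB (adjusted p = 0.0595). Bnip3 (mitophagy), Ndrg1 (a stress and differentiation gene), Adm (adrenomedullin) and P4ha2 had week 25 log2 folds of 0.20 ± 0.18, 0.24 ± 0.23, 0.13 ± 0.54 and 0.46 ± 0.38.

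Pfkfb3 encodes the bifunctional enzyme that makes fructose 2,6-bisphosphate, the strongest activator of phosphofructokinase, and it was 1 of the 2 members that fell at week 25. Its level was 47.0 and 40.2 CPM in control and 61.3 and 71.9 in UVB at week 2. At week 15 it was 88.8 and 71.3 against 36.7 and 42.5, and at week 25 it was 141 and 124 against 37.1 and 68.2. The groups did not overlap at any week, with UVB above control at week 2 and below it at weeks 15 and 25. Control values differed between weeks as well, at 40.2 to 47.0 CPM at week 2 and 124 to 141 at week 25, a difference not tested here. The log2 fold was 0.57 ± 0.26 at week 2 (adjusted p = 0.136), -1.03 ± 0.25 at week 15 (adjusted p = 0.0504) and -1.36 ± 0.25 at week 25 (adjusted p = 0.00629), and the week 25 call was kept under all 11 alternatives.

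The test of the difference in UVB effect between weeks, which called 1.6% of all genes, called Pfkfb3 as the single member of 31 (adjusted p = 0.0453). Its effect was lower by -1.60 ± 0.36 on the log2 scale at week 15 than at week 2, and by -1.93 ± 0.36 at week 25. That call was lost under 9 of 17 alternatives, with an adjusted p of 0.0634 with the replicate block and of 0.0847 without week 2 control 1 (range over alternatives 2.43e-04 to 0.170). Pfkfb4, a related enzyme, and Pdk1, a pyruvate dehydrogenase kinase, were not called at any week. Pfkfb4 was at 142 and 247 CPM in the week 2 controls and at 85.9 and 75.9 in those of week 25.

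Aldoc (aldolase C) was the single enzyme gene that fell. It stood at 60.1 and 37.3 CPM in control and 44.2 and 39.1 in UVB at week 2, 49.5 and 46.2 against 30.5 and 35.7 at week 15, and 63.6 and 69.5 against 37.6 and 37.0 at week 25. The groups overlapped at week 2 and not at weeks 15 and 25. The log2 fold was -0.86 ± 0.21 at week 25 (adjusted p = 0.017) and -0.56 ± 0.14 averaged over weeks (adjusted p = 0.00882). The week 25 call was lost under 5 of 11 alternatives, and the call averaged over weeks was kept under all 17. Per kilobase it was a minor aldolase, with a mean of 14.04 CPM per kilobase over the 16 libraries beside 197 for Aldoa.

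Tumors were compared first with whole skin of control mice, and in the main fit no member and no gene was called (0% higher, 0% lower of 14661 genes). With all 16 libraries in 1 fit, 7 genes and 0 members were called, and without the filter 1 gene and 0 members. With the replicate number as a block, 235 genes and 0 members were called. At an unadjusted p under 0.05, edgeR's test gave 3 members and 813 genes (5.55%), and DESeq2 called 66 genes and 0 members. The 3 members were Slc2a1, Pfkl and Vegfa. Slc2a1 was at 301 and 297 CPM in tumor and 119 and 206 in whole skin (log2 fold 0.81 ± 0.30), Pfkl at 166 and 155 against 80.6 and 102 (0.74 ± 0.22), and Vegfa at 187 and 213 against 112 and 139 (0.59 ± 0.21), each with an adjusted p of 0.891. Slc16a3 was at 117 and 115 CPM in tumor and at 26.8 and 95.6 in whole skin. Hk2 was at 184 and 237 CPM in tumor and at 89.9 and 169 in whole skin. The groups did not overlap for 17 members, 15 of them higher in tumor and 2 lower, beside 22.5% and 12.2% of all genes tested, and the median log2 fold was 0.24 over the members and -0.06 over all genes tested.

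The comparison depended on which of the 2 whole skin libraries was in the fit. Whole skin 1 was above whole skin 0 for the summed glycolytic enzymes (2779 against 1676 CPM), the transporters (479 against 273), the hypoxia targets (681 against 474) and the muscle markers (9443 against 4554), and its total was 4854612 counts against 7959503. Tumor libraries lay between them for the enzymes (2481 and 2536 CPM) and the muscle markers (7231 and 7501). They lay above both for the transporters (627 and 601) and the hypoxia targets (750 and 781). Without whole skin 1, 21 members were called higher and 1 lower in tumor, beside 18% and 18.2% of all genes. Without whole skin 0, 7 were called higher and 8 lower, beside 8.18% and 11.8%. Both fits kept 1 whole skin library, so their spread came from the tumor libraries alone. These counts are therefore not a result about the members. The median log2 fold of the members was 0.55 without whole skin 1 and 0.10 without whole skin 0. Over all genes it was 0.02 and 0.01. In whole skin 1 the marker sums of fibroblasts (1316 against 651 CPM) and adipocytes (1446 against 674) were also higher. So were those of endothelium (259 against 126) and macrophages (542 against 316), while the proliferation sum was lower (641 against 671). The part of muscle, of these other cells and of depth in the values of the members was not tested.

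**Figure D5:**
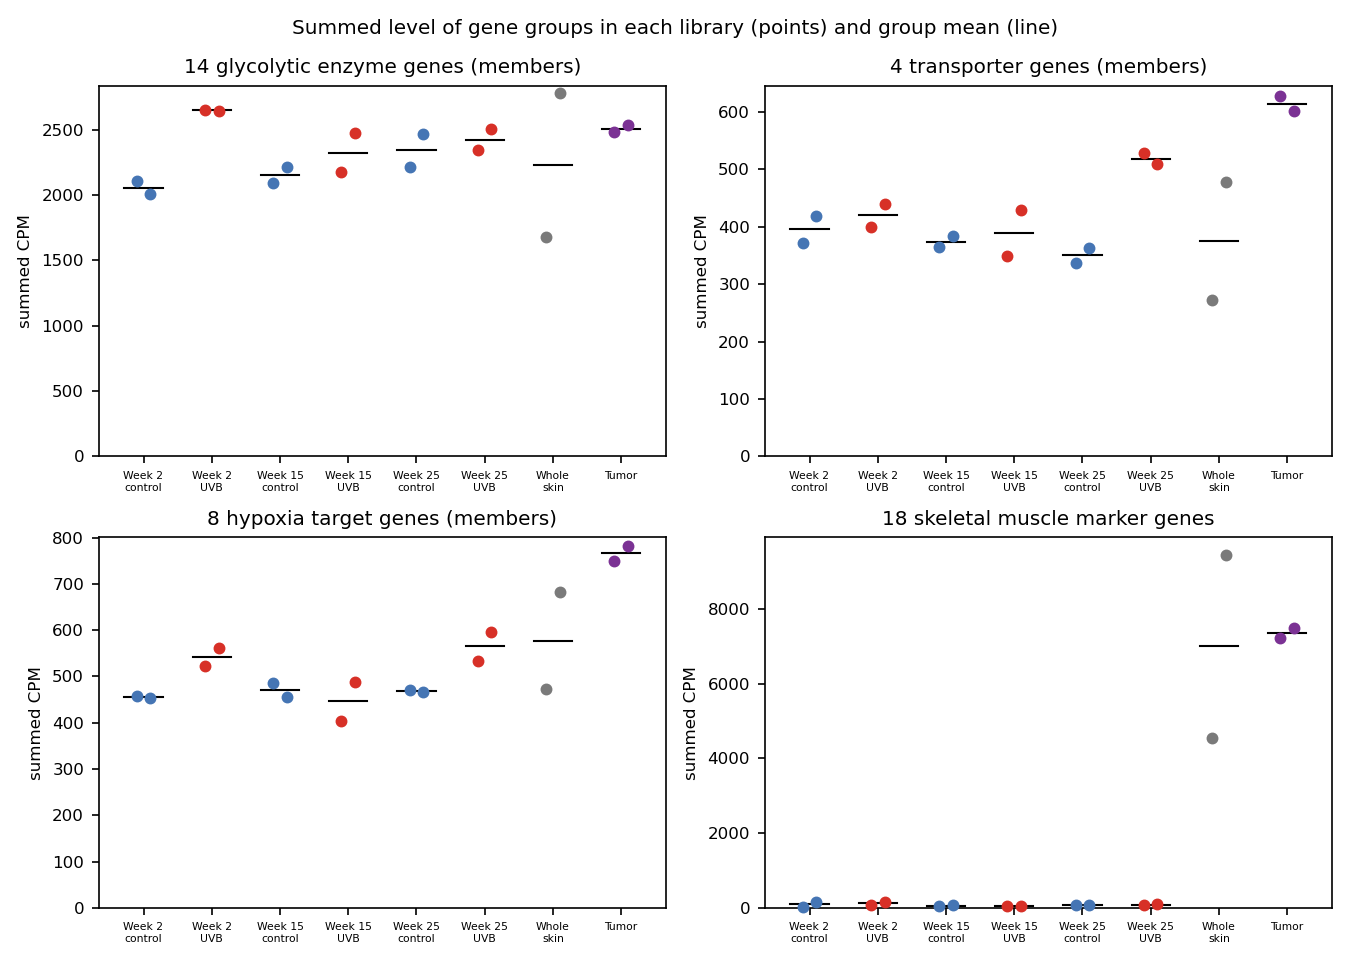
Summed CPM in each library (points) with the group mean (line) for 3 groups of members and for 18 skeletal muscle marker genes, on linear axes from 0. Blue is control epidermis, red UVB epidermis, grey whole skin and purple tumor. Both tumor points stand above all others for the transporters (601 and 627) and the hypoxia targets (750 and 781), and the muscle sum is 35.8 to 160 in epidermis and 4554 to 9443 in the other tissues.

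Against UVB epidermis of the same week, 4 of the 8 hypoxia target genes were higher in tumor and 4 were not called. Of the 31 members tested, 7 were called higher and 2 lower, beside 16.8% of 15126 genes higher and 12.7% lower. The median log2 fold was 0.17 over the members and 0.03 over all genes. The 4 targets were Adm at 24.1 and 17.0 CPM in tumor against 4.27 and 5.89 (log2 fold 2.01 ± 0.64, adjusted p = 0.0286), Car9 at 19.5 and 14.3 against 6.87 and 4.29 (1.59 ± 0.55, adjusted p = 0.0422), and the collagen prolyl hydroxylase genes P4ha2 (1.22 ± 0.37) and P4ha1 (1.08 ± 0.24). Slc16a3 was at 117 and 115 CPM in tumor against 33.6 and 26.6 (1.94 ± 0.56, adjusted p = 0.0179), and Slc2a3 was at 6.196 and 9.38 against 2.60 and 2.50 (1.60 ± 0.49). Gapdh was also called higher, with the limit on its counts given above. Hk1 (-0.81 ± 0.22) and Aldoc (-0.86 ± 0.29) were called lower. The calls of Adm, Car9, Slc16a3, Gapdh and Aldoc were each lost under 4 of 10 alternatives. Those of P4ha2 and Slc2a3 were lost under 3, that of Hk1 under 2 and that of P4ha1 under 1. Slc2a1 (log2 fold 0.33 ± 0.30), Hk2 (0.21 ± 0.32), Vegfa (0.49 ± 0.26) and Hif1a (0.17 ± 0.20) were not called.

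Leaving out any of the 4 libraries of this comparison left 1 to 4 members higher and 0 to 2 lower, beside 7.78% to 11.8% and 5.5% to 9.92% of all genes, and P4ha1 was called without either tumor library and without UVB 0, but not without UVB 1. In the same comparison all 18 muscle, 9 of 9 endothelial, 10 of 10 macrophage and 8 of 9 fibroblast markers were called higher in tumor. Fibroblast markers summed to 1308 and 1771 CPM in tumor and 189 and 69.7 in UVB epidermis. The part of these cells was not tested, and tissue composition and tumor cannot be told apart in this comparison.

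Whole skin against control epidermis compared the tissues of unexposed mice. Of the members tested, 7 were higher and 7 lower in whole skin, beside 31.9% and 23.7% of all genes. Slc2a3 (11.8 and 14.3 CPM against 1.01 and 0.616, log2 fold 3.97 ± 0.55), Slc16a3 (26.8 and 95.6 against 6.58 and 6.16, 3.25 ± 0.62), Car9 (2.40 ± 0.60), P4ha2 (1.67 ± 0.37), Gapdh, P4ha1 and Vegfa were higher. Hk1 (74.2 and 54.2 CPM against 199 and 260, -1.84 ± 0.22), Aldoc (-1.32 ± 0.29), Egln3 (-1.25 ± 0.24), Slc16a1 (-0.82 ± 0.19), Ankrd37 (-0.73 ± 0.21), Pfkl and Pfkp were lower. Of the 9 members called in tumor over UVB epidermis, 8 were also called, in the same direction, among the 14 of whole skin over control epidermis. Adm was not called there, with a log2 fold of 0.86 ± 0.64. Both comparisons set a tissue that held RNA of muscle and other cells against epidermis. In whole skin over control epidermis all 18 muscle, 9 fibroblast, 8 adipocyte, 9 endothelial and 10 macrophage markers were called higher. Of the 8 keratinocyte markers, 4 were called lower. The same overlap over all genes was not counted. The overlap is therefore not a result about the members. The count became 15 higher and 6 lower without whole skin 0 (all genes 32.6% and 24.9%), and 5 and 11 without whole skin 1 (28.3% and 22.2%).

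Other genes of these pathways were followed from lists that hold none of the 32 members. Over all genes, 8.09% were called higher and 9.74% lower at week 2, and 1.85% and 1.64% at week 15. At week 25 these shares were 10.6% and 10.9%, and in tumor over UVB epidermis 16.8% and 12.7%. In whole skin over control epidermis they were 31.9% and 23.7%. Among 26 tested genes of the wider glycolysis list (isoenzymes, gluconeogenesis, glycogen and other transporters), 1 was called higher and 5 lower at week 2, 0 and 1 at week 15, and 4 and 1 at week 25. Those with the smallest p at week 2 were Pgm1 (phosphoglucomutase, log2 fold -1.47 ± 0.25), Slc2a6 (-2.55 ± 0.46) and Fbp1 (fructose bisphosphatase of gluconeogenesis, -4.68 ± 0.90). In tumor over UVB epidermis 17 of 30 were higher and 1 lower, led by Eno3 (4.25 ± 0.29), Pgam2 (4.46 ± 0.37) and Pfkm (3.75 ± 0.30), the muscle isoenzymes. In whole skin over control epidermis the count was 20 higher and 0 lower of 30.

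The HIF regulators outside the members included Vhl, the recognition subunit of the ligase, and Hif1an, the asparaginyl hydroxylase that blocks HIF activity. Vhl rose at week 2 (0.88 ± 0.26) and week 25 (1.54 ± 0.26), and Hif1an fell at week 25 (-0.83 ± 0.15). Over 8 tested genes of this list, 1 was higher and 0 lower at week 2, none was called at week 15, and 1 was higher and 2 lower at week 25. Among 31 tested genes of a wider list of hypoxia targets, 6 were higher and 3 lower at week 2, 1 and 1 at week 15, and 6 and 4 at week 25. The median log2 fold of that list was -0.19, -0.02 and 0.19 in order of week (all genes -0.03, -0.01 and 0.01). In tumor over UVB epidermis 11 of 34 genes of that list were higher and 5 lower, beside 16.8% and 12.7% of all genes. The median log2 fold was 0.28, against 0.03 over all genes. Car12, a membrane carbonic anhydrase, rose at week 2 (1.67 ± 0.35) and week 25 (1.502 ± 0.34).

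Around pyruvate, Pdk3, a pyruvate dehydrogenase kinase, fell at each week, with log2 folds of -1.11 ± 0.19, -0.80 ± 0.19 and -0.67 ± 0.19 at weeks 2, 15 and 25. In the pentose phosphate list H6pd, the dehydrogenase of the endoplasmic reticulum, rose at each week (2.56 ± 0.44, 2.22 ± 0.43 and 2.01 ± 0.43), while the cytoplasmic enzyme gene G6pdx fell at week 25 (-0.70 ± 0.18). Among 16 genes of the tricarboxylic acid cycle, Sdhd, a subunit of succinate dehydrogenase, rose at week 2 (1.06 ± 0.21) and week 25 (0.94 ± 0.20). In the mean over weeks 2 of the 16 were higher and 2 lower, beside 14.4% and 15.1% of all genes.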

How the data were processed

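The authors deposited whole-number counts of reads per gene for 16 libraries. Per the submitters' processing notes, reads went through HISAT2, Picard, featureCounts and DESeq2 on mm10, and per the file headers the authors removed duplicates before counting. Not given in the sources used here are the strand setting, the annotation release and the treatment of reads with several matches.

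Counts were analysed with edgeR 4.0.16 in R 4.3.3: filterByExpr (minimum count 10, minimum total 15), TMM scaling, the quasi-likelihood F test with a prior count of 0.125, and Benjamini-Hochberg adjustment over all genes tested (threshold 0.05). Each standard error is the absolute log2 fold over the square root of F. Weekly effects and their difference came from 1 fit of 12 epidermis libraries, the mean over weeks from an additive model of week and treatment on those libraries, tumor against whole skin from its 4 libraries, and the remaining 2 comparisons from all 16. The test was also run on simulated data.

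The members and all gene lists were chosen with earlier results of these data known. All 32 members are accounted for. The naming rule gives values by library for members called in at least 2 of the 3 weekly comparisons, with a mean log2 fold over weeks of at least 0.8 in size, or called in tumor over whole skin (Hk2, Slc2a1, Slc16a3 and Vegfa). Values by library of other members were chosen after they were seen. Up to 3 called genes with the smallest p are named from each other list and comparison. Near-identical copies were sought with BLAST in GENCODE vM21 transcripts. Alternatives were DESeq2 1.42.0, other scaling, no filter, a replicate block, fewer or more libraries per fit, a correction for the duplicate ceiling, and leaving out each library.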

Additional observations from a re-analysis of the deposited data

Results flagged for a closer look

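Among the 6 control epidermis libraries, week 2 control 1, the shallowest library, stood apart from the other 5 for 4 members. It was above the others for Aldoa (456 CPM, others 324 to 348), Tpi1 (241 CPM, others 188 to 206) and Egln3 (560 CPM, others 320 to 404), and below them for Pdk1 (47.8 CPM, others 86.8 to 97.3). Week 15 control 1 was above the others for Slc16a3 (19.5 CPM, others 3.81 to 6.58) and Slc2a3 (2.09 CPM, others 0.423 to 1.01). The gap to the nearest library exceeded the 95% limit of Dixon's test in these 6 of 64 sets of libraries examined, and chance gives about 1 in 20. The effect of UVB on Pfkfb3 differed between weeks by a test of that difference (adjusted p = 0.0453 by edgeR's quasi-likelihood test).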

How the results depend on the processing

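With 2 libraries a group, counts of called members depended on single libraries. Under RLE size factors, all counts of members stayed within 1.5 times the main ones. At week 2, members higher numbered 2 with only the 4 libraries compared, and 0 to 13 when 1 library was left out (lower 0 to 1). At week 15, 1 was lower with DESeq2, without the filter and with only the 4 libraries (0 to 1 when 1 was left out; higher 0 to 2). At week 25, 5 were higher without the filter and 7 with only the 4 libraries (0 to 2 when 1 was left out), and 1 was lower with all 16 libraries in 1 fit (1 to 2). In the mean over weeks, leaving out 1 library gave 5 to 8 higher and 1 to 3 lower. The difference between weeks gave 2 members with DESeq2 and 0 to 9 when 1 library was left out. Tumor over whole skin gave 0 to 21 higher and 0 to 8 lower. Tumor over UVB epidermis gave 11 higher and 5 lower with only the 4 libraries, and 1 to 4 and 0 to 2 when 1 was left out. Whole skin over control epidermis gave 4 higher with only the 4 libraries, and 5 to 15 higher and 5 to 11 lower when 1 was left out. With only the 4 libraries, the share of all genes called moved the same way. In tumor over UVB epidermis it was 27.6% higher and 20.8% lower (main fit 16.8% and 12.7%). The share higher was 17.3% at week 25 (main 10.6%), 1.94% at week 2 (8.09%) and 23.1% in whole skin over control epidermis (31.9%). Without the filter at week 25 it was 9.02%, below the main fit. The share also changed when 1 library was left out, so these counts alone are not a result about the members. The cause was not tested, other than that a fit with fewer libraries has fewer degrees of freedom.

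With the replicate number as a block, 5 members were higher in the mean over weeks, beside 1828 of 13478 genes. In the difference between weeks 0 members were called, beside 97 of 13478 genes, and other member counts stayed within 1.5 times. Same-numbered libraries deviated together by correlations of -0.103 to 0.227 over the 6 comparisons of groups. The labels give no pairing, and with 2 libraries a group these values cannot show whether same-numbered libraries share a batch.

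Of single-member values, 412 called ones kept their call, 131 lost it, 104 became called and 10 reversed. Reversals into a call came from leaving out a library: Pdk1 at week 2 without control 0 (0.52, and -0.38 without control 1). In tumor over whole skin without whole skin 1 they were Gpi1 (0.41, and -0.38 without whole skin 0), Aldoa (0.43, -0.39), Tpi1 (0.55, -0.45), Pgk1 (0.54, -0.47), Ldha (0.48, -0.45) and Bnip3 (0.77, -0.62), and without whole skin 0 Pkm (-0.31, and 0.52 without whole skin 1). In whole skin over control epidermis without whole skin 1 they were Pkm (-0.41, and 0.44 without whole skin 0) and Ldha (-0.41, 0.54). Depth limits Gapdh, Eno1, Slc2a3 and Car9, which had few counts, and the duplicate ceiling limits the most abundant enzymes.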
